A study of Mus musculus with 20 samples.

Results

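The mitochondrial ribosomal protein genes were taken as every gene whose symbol begins with Mrpl or Mrps followed by a digit, which gave 76 of the 23992 gene symbols counted. The rule reads symbols alone, and the transcript with the most reads stood for each symbol. Regulatory T cells (Tregs) were CD4+ cells enriched from spleen and lymph nodes of B6-Foxp3EGFP mice, in which green fluorescent protein marks cells that express Foxp3, and then sorted for that fluorescence. CD8+ T cells were isolated with a kit from C57BL/6J mice, although the strain label of all samples reads C57BL/6N. Cells of each type were left unstimulated or given 200 nM of IL-2 or of IL-2-REH for 90 min or 4 hr, and their mRNA was sequenced. IL-2-REH is a partial agonist, an IL-2 variant whose contact with the common gamma chain of the receptor is weakened. Each of the 5 Treg groups held 3 libraries, and each of the 5 CD8+ groups held 1. The age of the mice was not given in the sources used here. Nothing in the labels says that replicates came from separate animals or cultures, so p-values measure only the spread between these libraries.

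Mitochondrial ribosomes translate the few proteins encoded by mitochondrial DNA, all of them parts of the respiratory chain and ATP synthase. Their RNA is made in the mitochondrion, but every protein of the small (Mrps) and large (Mrpl) subunit is encoded in the nucleus, made in the cytosol and imported. Many have bacterial homologues, and others exist only in mitochondria. T cells that are activated enlarge their mitochondria and raise mitochondrial translation, and IL-2 is among the signals that drive growth in these cells. IL-2-REH was designed to signal more weakly, and the comparisons ask how these genes stood after each cytokine, at each time and in each cell type.

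Depth was 20201392 to 63903764 reads on the chosen transcripts per library. Members took between 0.124% and 0.223% of these reads. Markers matched the cell labels. Foxp3 stood at 65.2 to 252 RPKM in Tregs and 0.482 to 0.999 in CD8+ cells, and Cd8a at 0.0879 to 1.84 in Tregs and 103 to 256 in CD8+ cells. RPKM is the number of reads scaled to transcript length and library size. Over all genes, Treg unstimulated replicate 1 and IL-2 4 hr replicate 3 stood furthest from their own groups, with a median absolute deviation of 0.405 and 0.402 on the log2 scale. The order differed over the 76 members. There IL-2-REH 90 min replicate 1 (0.498) and IL-2 4 hr replicate 3 (0.484) stood furthest, then IL-2 90 min replicates 1 (0.431) and 3 (0.42). Unstimulated replicate 1 was at 0.285. The summed level of 6 macrophage markers was 15.2 RPKM in unstimulated replicate 1 and 83.7 and 62.9 in replicates 2 and 3, and 4 erythroid markers reached 76.4 to 132 RPKM in the 5 libraries of replicate 3 against at most 11.3 in the other Treg libraries. In bulk libraries, fewer cells of a type and less RNA per cell cannot be told apart.

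All 76 members were detected, with a median level of 11.98 RPKM against 8.70 for the 10458 genes at a mean of 1 RPKM or more. The median level was at least 10 RPKM for 48 members and under 5 RPKM for 9. Their transcripts were short, with a median exon length of 1052.5 nt against 2700 nt for those genes. Large subunit members (49, median 11.7 RPKM) and small subunit members (26, median 12.4 RPKM) had like levels. Mrps36 is counted among the 76 by its symbol, but it is a subunit of the alpha-ketoglutarate dehydrogenase complex and not of the ribosome. Members with a bacterial homologue (47) had a median of 12.8 RPKM and mitochondria-specific members (27) 10.1 RPKM. For scale, the median over 84 cytosolic ribosomal protein genes was 866 RPKM and over 83 nuclear oxidative phosphorylation genes 36.8 RPKM.

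**Figure D1:**
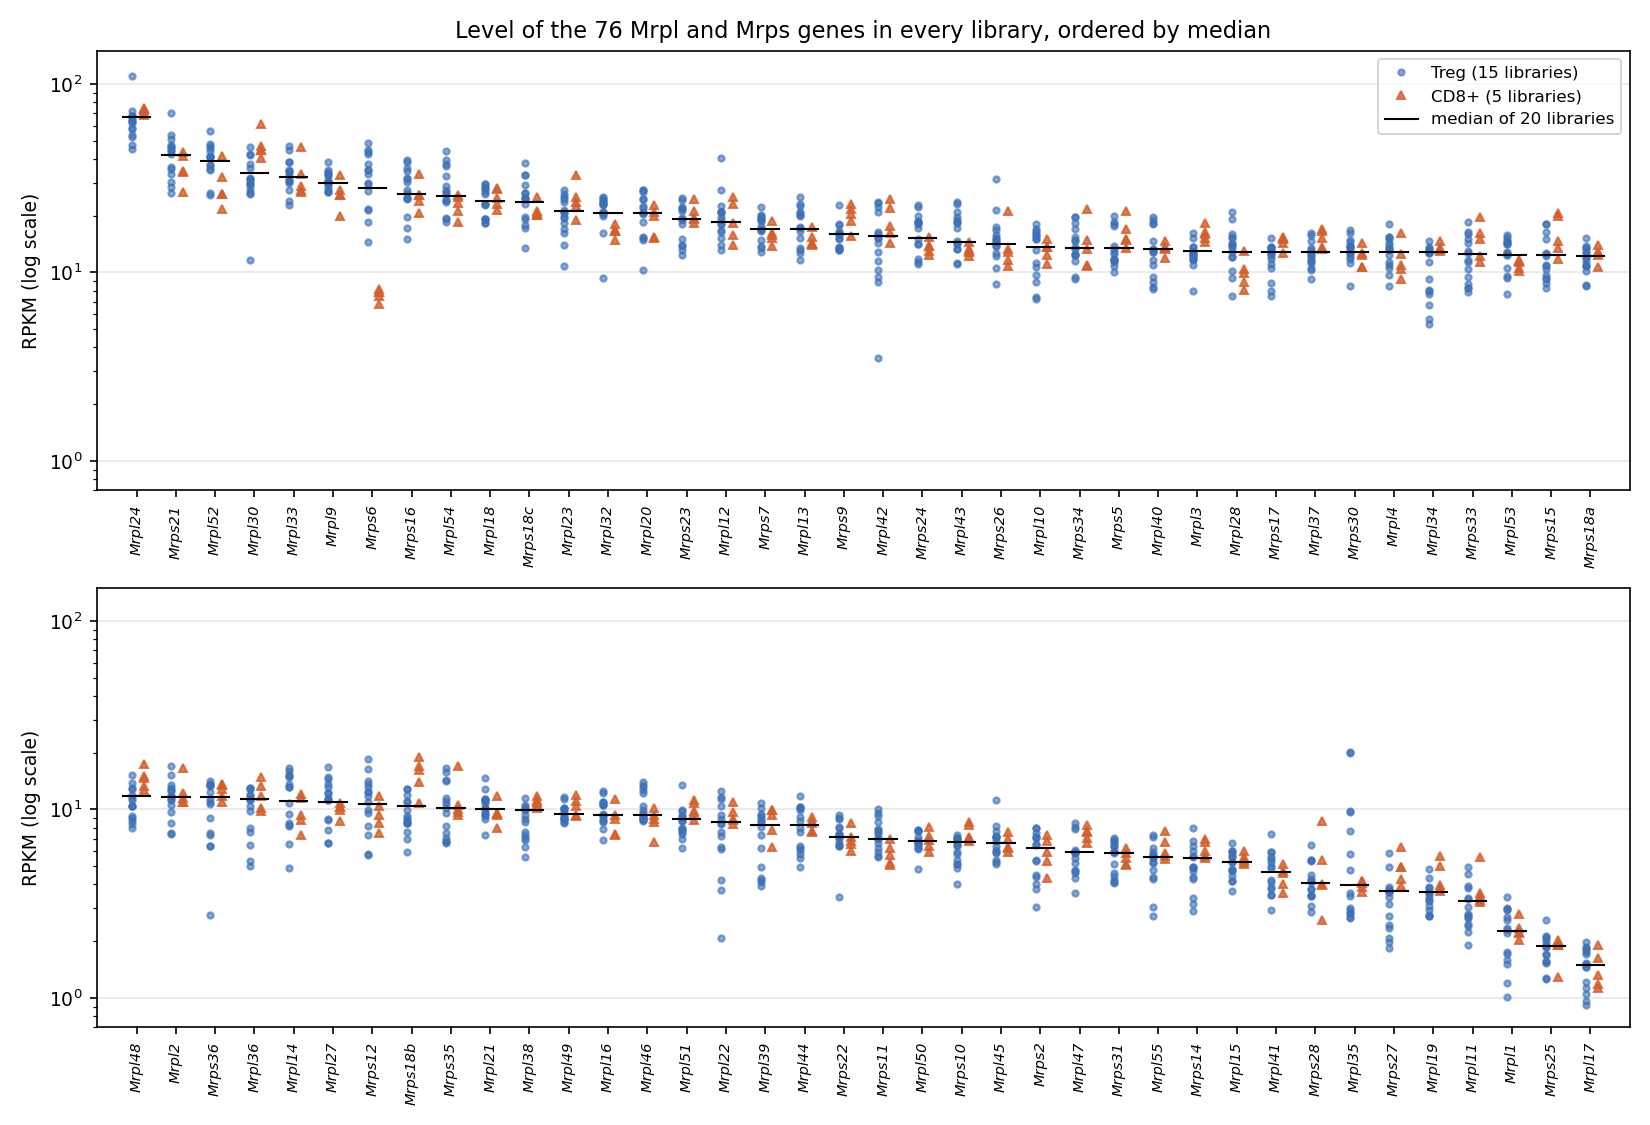
Level of each of the 76 members in RPKM on a log axis, with the points standing for libraries of Tregs and CD8+ T cells. The highest and lowest member medians are 44.5-fold apart, with Mrpl24 at 66.4 RPKM and Mrpl17 at 1.49 RPKM.

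Mrpl24, the homologue of a bacterial protein that starts assembly of the large subunit, was the highest at 66.4 RPKM (45.0 to 111 over the 20 libraries). It was followed by Mrps21 (42.0), Mrpl52 (39.1), Mrpl30 (33.8) and Mrpl33 (32.1). The lowest were Mrpl17 at 1.49 RPKM, Mrps25 at 1.89, Mrpl1 at 2.26, Mrpl11 at 3.27 and Mrpl19 at 3.63. The spans of neighbours in this order overlap: Mrps21 ranged from 26.3 to 70.0 RPKM over the libraries, and Mrpl52 from 21.7 to 56.0. The low members were long transcripts, such as Mrpl17 with 6712 nt of exon and Mrps25 with 6065 nt.

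Members with a known place or role were spread over the range of levels. In the stalk, where translation factors bind, Mrpl12 had a median of 18.6 RPKM, Mrpl10 of 13.7 and Mrpl11 of 3.27. Mrps12, which lies at the decoding centre, stood at 10.6 RPKM. Mrpl45, which holds the ribosome to the inner membrane, stood at 6.62 RPKM. The paralogs Mrps18a, Mrps18b and Mrps18c, which occupy different places in the ribosome, stood at 12.2, 10.4 and 23.7 RPKM.

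Exon bases were shared with another annotated gene by 27 of the 76 members, by 22 only with a gene on the opposite strand and by 5 with a gene on the same strand. Whether counting used strand was not given in the sources used here, so the reads of such genes cannot be told apart. Mrpl24 overlaps Rrnad1 over 48.5% of its exon bases, Mrps25 overlaps Nr2c2 over 75.6%, Mrps18b overlaps Gm16279 over 59.1% and Mrps27 overlaps 6430562O15Rik over 22.6%, all on the opposite strand. Mrps6 shares exon bases with Gm49711 and Slc5a3 on its own strand, up to 36.1% with a single gene. Their values are uncertain for that reason.

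Promoter windows from RefSeq (GRCm38.p6) were found for 67 of the 76 members. Each ran from 250 bases before to 50 after the listed transcription start nearest the gene's start. The listed start could lie apart from the gene's start, as for Mrps23, at 88204388 against 88194106 on chromosome 11. They were searched on both strands for CGCANGCG (NRF1 core), CCGGAAG (ETS/GABP), AANATGGC (YY1), GGGCGG (SP1 GC box), CACGTG (E-box) and TTCNNNGAA (STAT5). The factors NRF1 and GABP are known regulators of nuclear genes for mitochondrial proteins. Matches to CGCANGCG were in 28.4% of member windows, 16.3% of those of tested genes and 8.5% of all 27025 windows. For CCGGAAG the shares were 32.8%, 16.9% and 9.1%, and for AANATGGC 29.9%, 8.2% and 6.2%. The STAT5 motif, the site read by the factor that IL-2 activates, was in 9.0%, 7.0% and 8.4%, the E-box in 7.5%, 9.6% and 7.2%, and GGGCGG in 49.3%, 60.7% and 35.9%. The windows of 3 members that the comparisons return to are printed to base 30 after the start, with motif matches in capitals. Mrps27 (chr13:99344536-99344815, plus strand) holds 3 kinds of motif, Mrps7 (chr11:115603890-115604169, plus strand) also 3, and Mrps6 (chr16:92058086-92058365, plus strand) only GC boxes, the first pair of which overlap in 1 base.
Mrps27: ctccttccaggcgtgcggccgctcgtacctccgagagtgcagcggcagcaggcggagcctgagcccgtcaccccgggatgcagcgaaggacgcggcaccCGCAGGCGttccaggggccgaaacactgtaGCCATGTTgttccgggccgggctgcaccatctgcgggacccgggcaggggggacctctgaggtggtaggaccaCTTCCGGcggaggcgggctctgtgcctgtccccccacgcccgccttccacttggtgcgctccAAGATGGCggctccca
Mrps7: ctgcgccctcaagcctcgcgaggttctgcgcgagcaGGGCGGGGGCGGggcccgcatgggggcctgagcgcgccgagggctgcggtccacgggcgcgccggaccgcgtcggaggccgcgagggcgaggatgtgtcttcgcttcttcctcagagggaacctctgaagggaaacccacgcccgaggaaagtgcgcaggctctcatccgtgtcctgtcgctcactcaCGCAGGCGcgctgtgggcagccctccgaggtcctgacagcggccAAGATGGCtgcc
Mrps6: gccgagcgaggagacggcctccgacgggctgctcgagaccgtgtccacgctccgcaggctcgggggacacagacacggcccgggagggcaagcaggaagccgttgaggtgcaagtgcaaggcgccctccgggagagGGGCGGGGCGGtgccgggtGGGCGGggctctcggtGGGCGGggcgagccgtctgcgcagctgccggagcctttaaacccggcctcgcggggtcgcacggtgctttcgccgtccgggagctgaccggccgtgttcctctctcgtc

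IL-2 at 90 min was compared with no stimulation in Tregs, to ask which members answer the cytokine early. No member passed the test, where 0.854% of the 14992 genes tested did (edgeR quasi-likelihood test, Benjamini-Hochberg adjusted p under 0.05). At an unadjusted p under 0.05 there were 5 members, all lower after IL-2, or 6.58% against 13.79% of all genes, and DESeq2 called 1 (4.07% of genes). The log2 fold change was above 0 for 22 of 76 members, with a median of -0.10 against -0.06 over all genes. Its 95% interval lay within 1 log2 unit of 0 for 67 members, and reached further for the other 9. All 4 comparisons with unstimulated Tregs share the same 3 control libraries.

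Mrps27, a pentatricopeptide repeat protein of the small subunit, had the lowest p in that comparison. Its level was 2.44, 5.87 and 4.92 RPKM in unstimulated replicates 1 to 3 and 2.71, 2.08 and 1.99 RPKM after IL-2. Replicate 1 thus had a low unstimulated value, below its own treated value, and the groups overlapped. The log2 fold change was -0.80 (SE 0.247, 95% interval -1.33 to -0.27, adjusted p = 0.18 by the edgeR quasi-likelihood test). DESeq2 called it at -0.81 (adjusted p = 0.0425). Without unstimulated replicate 1 the edgeR fold change was -1.04 (adjusted p = 0.006), in a fit that called 12.9% of genes.

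Mrpl22, the homologue of a bacterial protein that lines the exit tunnel, had the lowest fold change of the members at -0.91 (SE 0.372, adjusted p = 0.306 by the edgeR quasi-likelihood test). It stood at 8.38, 11.3 and 11.7 RPKM in unstimulated cells and at 7.57, 4.25 and 3.72 RPKM after IL-2, all 3 below every unstimulated value. Mrpl42, a mitochondria-specific protein, followed with a fold change of -0.64. The highest fold changes were 0.42 for Mrps7, 0.31 for Mrps22 and 0.28 for Mrpl50, and all 3 same-numbered pairs were higher after IL-2 for each.

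IL-2-REH at 90 min called 0 of the 76 members, with 0.0934% of genes called (edgeR quasi-likelihood test, Benjamini-Hochberg). At an unadjusted p under 0.05 there were 2 members (2.63%, against 11.35% of all genes), and DESeq2 called 0 (0.76% of genes). The median log2 fold change was -0.08, against -0.05 over all genes, and 28 members were above 0. Mrps27 stood at 3.17, 2.37 and 1.84 RPKM in replicates 1 to 3, and its fold change was -0.69 (SE 0.247, adjusted p = 0.396). Mrps7, the homologue of a bacterial protein that starts assembly of the small subunit head, stood at 20.2, 19.4 and 20.01 RPKM against 17.7, 13.8 and 12.9 RPKM in unstimulated cells. Those groups did not overlap, and its fold change was 0.55 (SE 0.222, adjusted p = 0.403). Mrps6 (0.46) and Mrpl43 (0.33) came next, and Mrpl42 (-0.64) and Mrps35 (-0.50) were the lowest after Mrps27.

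Without unstimulated replicate 1, the same comparison called Mrps27 (-0.93, adjusted p = 0.0107), Mrps6 (1.09, adjusted p = 0.0181) and Mrps7 (0.80, adjusted p = 0.0289) by the edgeR quasi-likelihood test, with 12.1% of genes called. Summed macrophage markers were at 7.30 to 15.2 RPKM in all 5 libraries of replicate 1. In replicate 2 they stood at 83.7 RPKM unstimulated and 27.3 to 44.3 RPKM treated, and in replicate 3 at 62.9 RPKM and 20.9 to 34.5 RPKM. They were lower in every treated library than in its unstimulated one, and their part in these results was not tested. Mrps6, a small subunit protein, had 44.6 RPKM in unstimulated replicate 1 and 21.7 and 18.5 RPKM in the other unstimulated libraries. After IL-2-REH it had 48.5, 33.2 and 29.96 RPKM, so each same-numbered pair was higher, as for 16.6% of expressed genes. After 4 hr of IL-2-REH it had 34.9, 42.4 and 43.4 RPKM, a fold change of 0.47 (SE 0.344, adjusted p = 0.605 by edgeR), and without unstimulated replicate 1 it was called at 1.09 (adjusted p = 0.0281, 6.93% of genes called).

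With replicate 1 left out of every group, the edgeR quasi-likelihood fit called 17.3% and 15.7% of genes at 90 min of IL-2 and IL-2-REH and 13.4% and 10.7% at 4 hr, and it also reached Mrpl39 at 90 min. That mitochondria-specific protein of the large subunit stood at 6.22, 10.2 and 9.50 RPKM unstimulated and at 7.35, 4.10 and 3.94 RPKM after 90 min of IL-2. Replicates 2 and 3 were lower after IL-2 and replicate 1 higher. The fold change was -0.63 with all libraries (adjusted p = 0.316) and -0.99 without replicate 1 (adjusted p = 0.0164). Of the 4 hr comparisons, that fit called 0 members for IL-2 and Mrps6 for IL-2-REH, and leaving out unstimulated replicate 1 alone called 0 members for IL-2 at 4 hr (8.87% of genes).

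**Figure D2:**
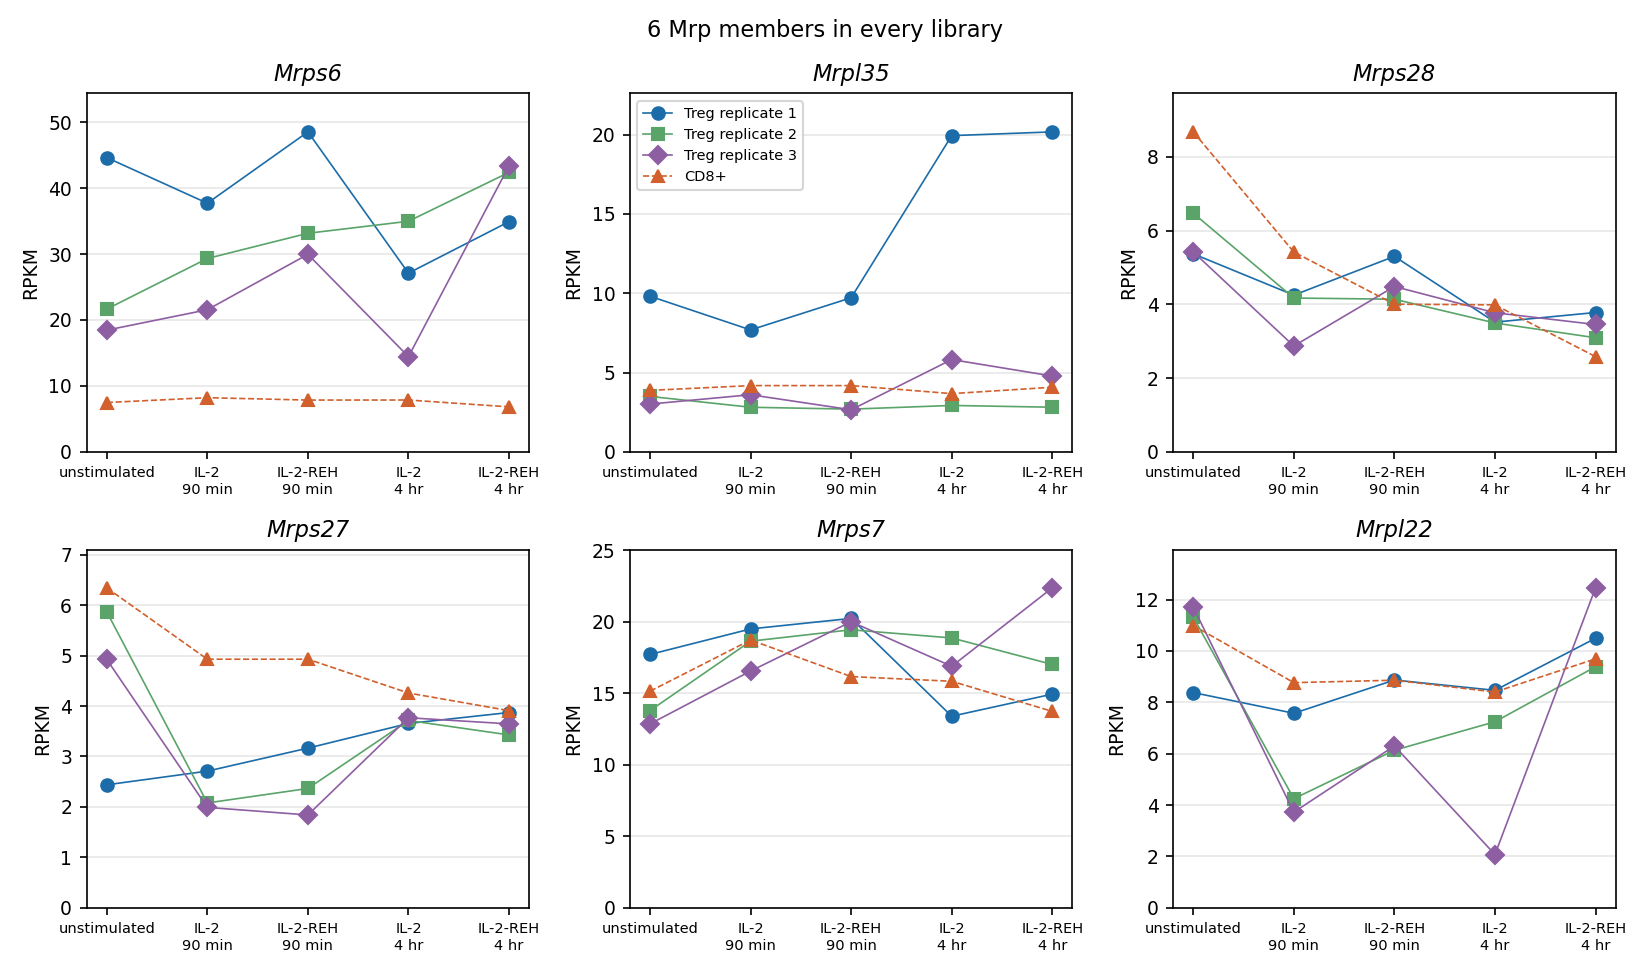
RPKM of 6 members in each library, with a line for each Treg replicate number and a dashed line for CD8+ T cells, over the 5 conditions. Mrps27 is at 2.44 RPKM in unstimulated Treg replicate 1 and at 5.87 and 4.92 RPKM in replicates 2 and 3, and Mrpl35 is highest in all libraries of replicate 1.

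After 4 hr of IL-2 the members stood on both sides of unstimulated cells. Again 0 of 76 passed the test, where 2.26% of genes did (edgeR quasi-likelihood test, Benjamini-Hochberg). There were 5 members (6.58%) at an unadjusted p under 0.05, against 17.73% of all genes, and 38 of 76 had a fold change above 0 with a median of 0.00, as over all genes. Mrpl4, an exit tunnel protein, fell short of the test at -0.50 (SE 0.163, 95% interval -0.85 to -0.15, adjusted p = 0.13). It stood at 15.4, 18.2 and 13.9 RPKM in unstimulated cells and at 10.5, 13.1 and 8.49 RPKM after IL-2, so all 3 treated values were below the lowest unstimulated one. DESeq2 called it (-0.49, adjusted p = 0.0282), among 7.15% of genes.

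Several of the other members at the ends of that comparison had 1 library far from the rest of its group. Mrpl22 (-0.77), Mrpl42 (-0.68) and Mrpl30 (-0.67) were lowest, and in each the IL-2 4 hr replicate 3 library held the lowest value. Mrpl22 stood at 8.47, 7.24 and 2.07 RPKM and Mrpl42 at 16.3, 15.95 and 3.499 RPKM in replicates 1 to 3. Mrpl30 stood at 26.4, 30.8 and 11.6 RPKM against 29.5, 41.8 and 42.6 RPKM unstimulated. All 3 of its same-numbered pairs were lower after IL-2, as for 20.4% of expressed genes. The IL-2 4 hr replicate 3 library had the fewest reads of all, and it was the lowest of the 20 libraries for 24 members (31.6%) against 21.4% of expressed genes. Its deviation from its group correlated with transcript GC content over 10289 genes (r = 0.416, and 0.266 over the 76 members), which is a description across genes that are not independent, and the part of GC content was not tested. Mrpl35, a large subunit protein, had the highest fold change, 0.85 (SE 0.831), and its values were 19.9, 2.92 and 5.82 RPKM. Mrpl12, a stalk protein that also binds the mitochondrial RNA polymerase, stood at 18.9, 20.8 and 40.3 RPKM against 18.02, 21.03 and 16.8 RPKM unstimulated, a fold change of 0.63 (SE 0.301, adjusted p = 0.296). Mrps12 followed at 0.34.

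Mrpl35 was the 1 member whose 5 replicate 1 libraries all stood above the other 10 Treg libraries, at 7.68 to 20.2 RPKM against 2.65 to 5.82 RPKM. Of expressed genes, 2.33% had their replicate 1 libraries all above or all below the others in this way. Its fold change after 4 hr of IL-2 was -0.28 without IL-2 4 hr replicate 1.

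Of the 4 comparisons with unstimulated Tregs, IL-2-REH at 4 hr had the most members above 0, 56 of 76, with a median log2 fold change of 0.15 against 0.01 over all genes. By the edgeR quasi-likelihood test 0 passed, where 0.314% of genes did, and 5 members (6.58%) had an unadjusted p under 0.05 against 13.33% of all genes. The same-numbered pairs differed: medians over members were 0.23, -0.20 and 0.23 for replicates 1, 2 and 3. Pair values throughout are ratios on the log2(RPKM + 1) scale, not edgeR fold changes. Without replicate 3 the edgeR median was 0.01, with 39 of 76 above 0, and without replicate 2 it was 0.25, with 67 above 0. Highest were Mrpl35 (0.72), Mrpl41 (0.59, SE 0.234, adjusted p = 0.289) and Mrpl34 (0.52). Lowest were Mrps28 (-0.73), Mrpl4 (-0.36) and Mrpl3 (-0.31), whose bacterial homologue reaches towards the peptidyl transferase centre.

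Mrps28, a small subunit protein, was below the same-numbered unstimulated library in every treated library. It stood at 5.37, 6.47 and 5.42 RPKM in unstimulated Tregs and at 3.78, 3.09 and 3.45 RPKM after 4 hr of IL-2-REH, with no overlap. The fold change was -0.73 (SE 0.225, 95% interval -1.21 to -0.25, adjusted p = 0.178 by the edgeR quasi-likelihood test), and DESeq2 called it (-0.74, adjusted p = 0.0195) among 4.15% of genes. After 4 hr of IL-2 it stood at 3.52, 3.495 and 3.77 RPKM, a fold change of -0.60 (adjusted p = 0.188). All 12 Treg pair ratios to unstimulated and all 4 CD8+ ratios were below 0, as for 3.53% of expressed genes. These ratios share their unstimulated libraries.

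IL-2-REH and IL-2 were then compared at the same 200 nM dose, at 90 min and at 4 hr, as 2 pairs. At 90 min 0 members passed (0.0133% of genes) and 0 had an unadjusted p under 0.05 by the edgeR quasi-likelihood test, and DESeq2 called 0 (0.109% of genes). The 95% interval of the difference lay within 1 log2 unit of 0 for 73 of 76 members. Differences ran from -0.18 for Mrps2 to 0.48 for Mrpl22 (SE 0.370), with Mrpl13 (-0.15) and Mrps18b (-0.12) at the low end and Mrps6 (0.33) and Mrps28 (0.31) at the high end. At this time no difference passed the test, which does not show that the cytokines act alike.

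At 4 hr 0 members passed again (0.0267% of genes), with 4 members (5.26%) at an unadjusted p under 0.05, all higher after IL-2-REH, against 3.73% of all genes, and 0 called by DESeq2 (0.453% of genes). Of 76 members 56 were higher after IL-2-REH, with a median log2 difference of 0.17 against 0.01 over all genes. The size of the median depended on replicate 3, where the pair median was 0.54, against 0.15 and -0.07 in replicates 1 and 2. In replicates 1 to 3, 63, 19 and 61 members were higher after IL-2-REH. Without replicate 3 the median was -0.01, with 36 of 76 members above 0. Without IL-2 4 hr replicate 3 alone it was 0.14, with 61 above 0. Erythroid markers were high in both libraries of the replicate 3 pair, at 80.9 RPKM after IL-2 and 111 RPKM after IL-2-REH, and their part was not tested. The members with the largest differences were Mrpl22 (0.83), Mrpl42 (0.69) and Mrpl30 (0.62) upward and Mrps26 (-0.41), Mrpl12 (-0.38) and Mrpl21 (-0.25) downward. Mrpl30 stood at 26.4, 30.8 and 11.6 RPKM after IL-2 and at 31.4, 29.96 and 46.4 RPKM after IL-2-REH, so the pairs of replicates 1 and 2 differed little. The change of this difference from 90 min to 4 hr had 0 members at an unadjusted p under 0.05 and 0 called, with 0.0% of genes called. Its 95% interval lay within 1 log2 unit of 0 for 45 members. It ran from -0.47 for Mrps26, -0.44 for Mrps28 and -0.42 for Mrpl12 to 0.53 for Mrpl32, 0.62 for Mrpl30 and 0.69 for Mrpl42.

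Subunits and replicates were read side by side. Large subunit members had a median log2 fold change against unstimulated cells of -0.07 after 90 min of IL-2 and 0.12 after 4 hr of IL-2-REH, and small subunit members of -0.13 and 0.16. The 49 members that share no exon bases had -0.15 and 0.08. After 90 min of IL-2 the pair medians over all members were 0.21, -0.38 and -0.45 in replicates 1 to 3, and after 90 min of IL-2-REH 0.26, -0.49 and -0.36. Replicate 1 stood above 0 and the others below, and the all-gene median of the IL-2 pairs moved likewise, at 0.16 in replicate 1 and -0.28 in replicate 2. Of the 20 libraries, IL-2 90 min replicate 3 was the lowest for 27 members (35.5%, against 14.6% of expressed genes) and had the smallest share of reads on members, and IL-2-REH 4 hr replicate 3 was the highest for 16 (21.1%, against 7.2%). For 4 hr of IL-2 the pair medians were 0.07, -0.10 and -0.29.

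**Figure D3:**
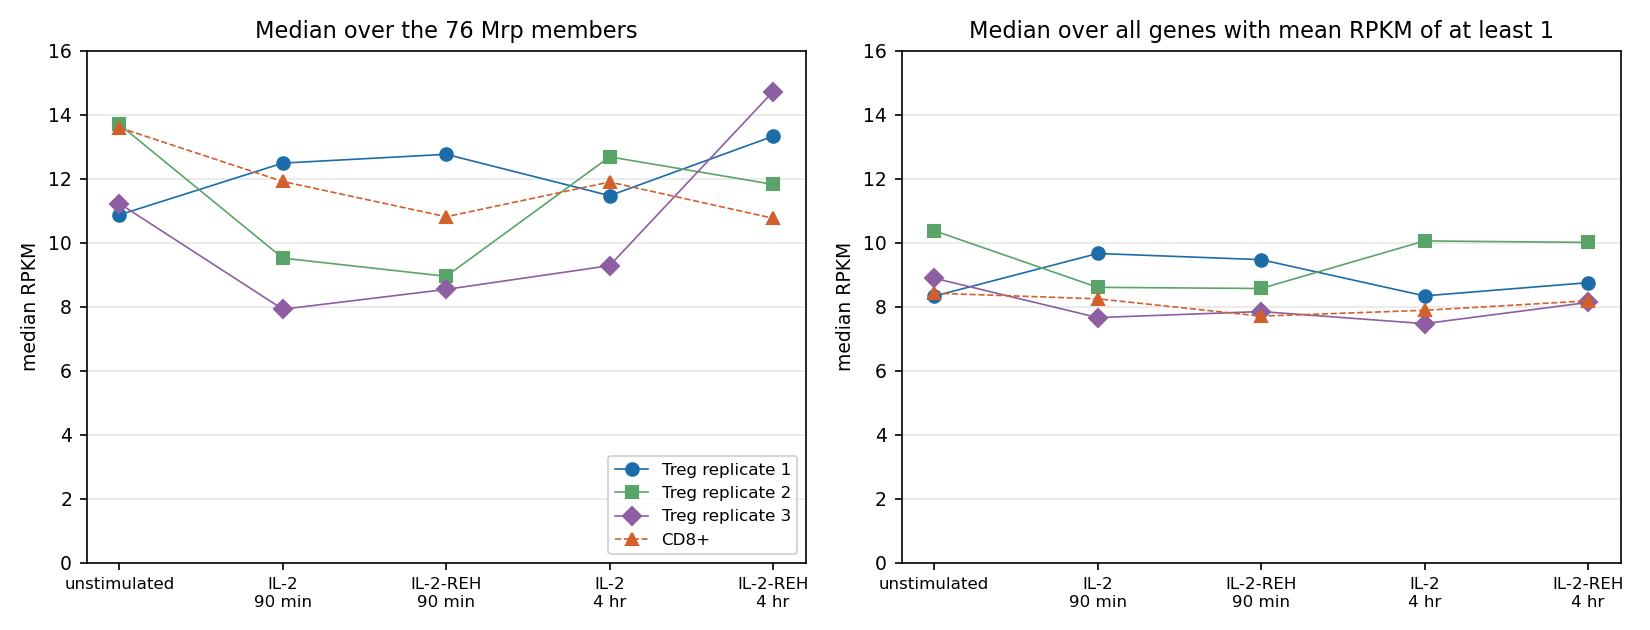
Median level of the 76 members in each library in RPKM, by condition. Treg replicate 3 goes from 11.2 RPKM unstimulated to 7.92 RPKM after 90 min of IL-2 and 14.7 RPKM after 4 hr of IL-2-REH.

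The 2 times were compared within each cytokine. With IL-2, 0 members passed (0.0% of genes), 6 (7.89%) had an unadjusted p under 0.05 by edgeR against 17.05% of all genes, and DESeq2 called 0 (2.91% of genes). Mrpl35 (1.05, SE 0.835), Mrps26 (0.70) and Mrps27 (0.66, adjusted p = 0.228) were highest at 4 hr, and Mrpl32 (-0.60), Mrpl30 (-0.53) and Mrps30 (-0.40), which despite its symbol belongs to the large subunit, were lowest. Mrps27 went from 2.71, 2.08 and 1.99 RPKM at 90 min to 3.65, 3.71 and 3.77 RPKM at 4 hr, without overlap. With IL-2-REH, 0 members passed (0.0% of genes), 4 (5.26%) had an unadjusted p under 0.05 against 14.59% of all genes, and DESeq2 called 0 (1.98% of genes). There 61 of 76 members were above 0, with a median of 0.24 against 0.04 over all genes. The pair medians were -0.05, 0.26 and 0.66 on the log2(RPKM + 1) scale, against -0.12, 0.18 and 0.14 over expressed genes. Without replicate 3 the edgeR median was 0.09, with 45 of 76 above 0, and without replicate 1 it was 0.36, with 66 above 0. Of 78 nuclear oxidative phosphorylation genes, 61 were above 0 in the same comparison. Mrpl35 (0.85), Mrpl39 (0.68, SE 0.264, adjusted p = 0.289 by edgeR) and Mrpl42 (0.64) were highest and Mrps28 (-0.56), Mrpl4 (-0.27) and Mrps30 (-0.27) lowest. Mrpl39, mitochondria-specific, stood at 8.53, 4.34 and 4.22 RPKM at 90 min and at 10.9, 9.001 and 9.23 RPKM at 4 hr, without overlap.

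**Figure D4:**
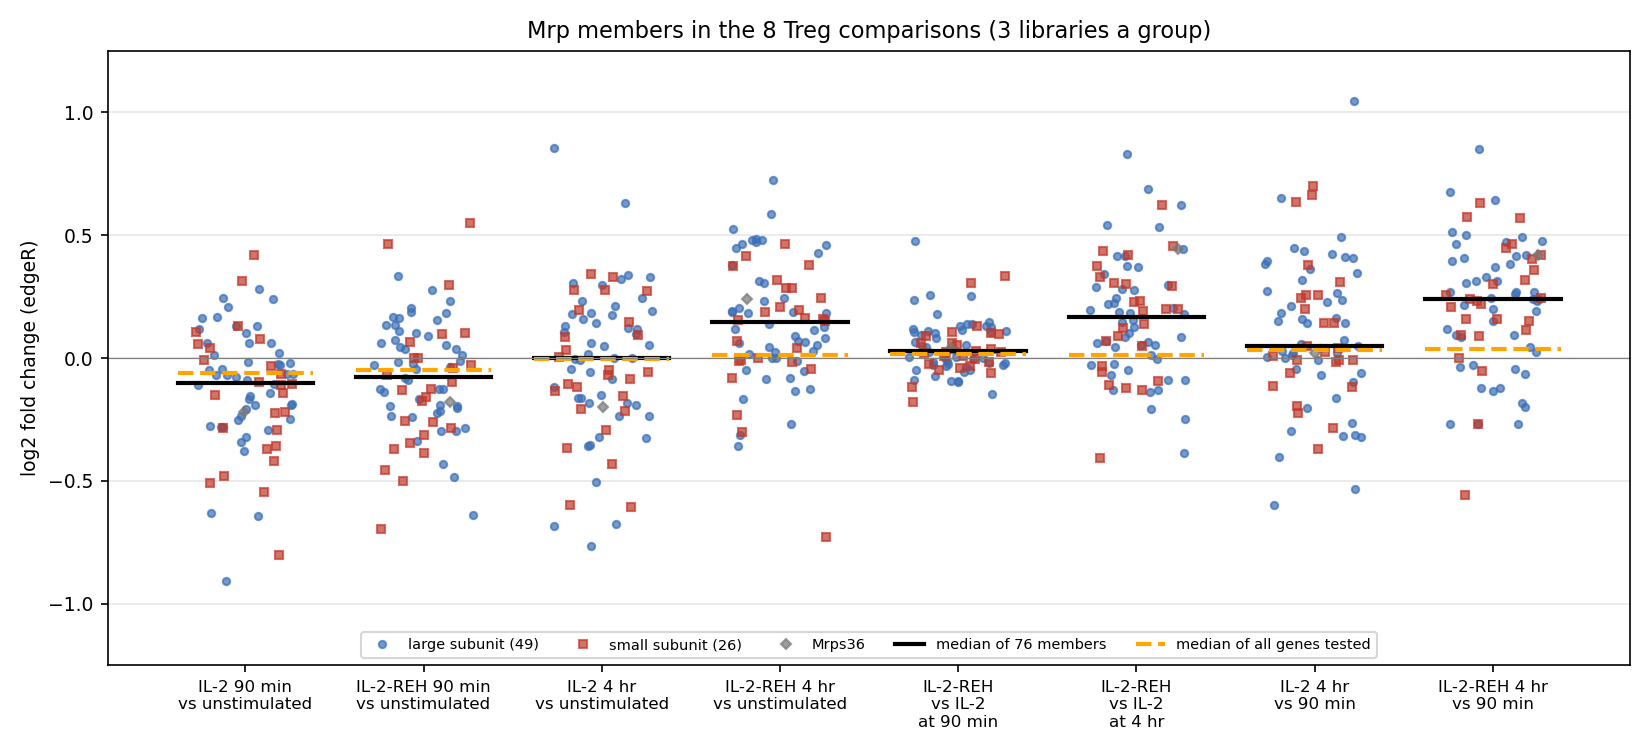
log2 fold change of the 76 members in the Treg comparisons, with the median over members and over all genes tested. No member passes the edgeR test in any of them, and member medians run from -0.10 (IL-2 90 min) to 0.24 (IL-2-REH 4 hr against 90 min).

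In CD8+ T cells each condition was 1 library, so ratios of log2(RPKM + 1) are given without a test. Most members had ratios to unstimulated below 0. Member medians were -0.18 (IL-2) and -0.27 (IL-2-REH) for 90 min and -0.15 and -0.29 for 4 hr, against -0.04, -0.12, -0.07 and -0.02 over 10021 expressed genes. Nuclear oxidative phosphorylation genes had medians of -0.26, -0.43, -0.20 and -0.44 and cytosolic ribosomal protein genes of -0.21, -0.35, -0.41 and -0.42. Markers of other cells also stood higher in the unstimulated library: 39.3 RPKM against 13.2 to 20.6 RPKM for macrophages, and 10.5 RPKM against 3.26 to 5.18 RPKM for B cells. Markers of T cells stood at 751 RPKM against 411 to 486 RPKM, and the part of these markers in the member ratios was not tested. The unstimulated library was the highest of all 20 for 20 members (26.3%) against 10.3% of expressed genes. A single member ratio was past 1 log2 unit, that of Mrps28 after 4 hr of IL-2-REH, at -1.43, where 6.11% of genes passed 1. Mrps28 stood at 8.68 RPKM unstimulated, 5.42 and 4.004 RPKM at 90 min of IL-2 and IL-2-REH, and 3.99 and 2.58 RPKM at 4 hr, the lowest value of any library. At 90 min of IL-2 the lowest ratios were those of Mrps35 (-0.74), Mrpl33 (-0.67) and Mrps26 (-0.67), and the highest Mrpl50 (0.40), Mrps25 (0.35) and Mrps22 (0.33). No ratio passed 1 there, against 7.24% of genes, nor after IL-2-REH at 90 min (8.57% of genes) or IL-2 at 4 hr (4.71%).

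Between the cytokines in CD8+ cells the member median was -0.12 at 90 min and -0.12 at 4 hr, against -0.07 and 0.08 over expressed genes. The lowest ratios at 4 hr were Mrpl12 (-0.67), Mrpl16 (-0.57) and Mrpl20 (-0.56), and the highest Mrpl9 (0.36), Mrps9 (0.25) and Mrpl22 (0.19). None was past 1 at either time (0.868% and 2.23% of genes). At 90 min they ran from -0.38 for Mrps2, -0.36 for Mrps28 and -0.34 for Mrpl20 to 0.12 for Mrpl13, 0.10 for Mrpl54 and 0.07 for Mrpl9.

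The other CD8+ ratios to unstimulated had Mrps28 lowest in each. After 90 min of IL-2-REH it was at -0.95, followed by Mrps34 (-0.92) and Mrps35 (-0.80), with Mrps25 (0.40), Mrpl50 (0.25) and Mrpl41 (0.15) highest. With 4 hr of IL-2 it was at -0.96, followed by Mrps26 (-0.80) and Mrpl9 (-0.70), with Mrpl14 (0.41), Mrps25 (0.34) and Mrpl16 (0.31) highest. With 4 hr of IL-2-REH, Mrps34 (-0.94) and Mrpl52 (-0.91) followed it, with Mrps25 (0.37), Mrpl14 (0.35) and Mrpl1 (0.32) highest. Mrps25 thus had a ratio above 0 in all 4, from 1.29 RPKM unstimulated to between 1.90 and 2.03 RPKM. From 90 min to 4 hr the member median was 0.02 with IL-2, from Mrps9 (-0.45) to Mrps15 (0.53), and -0.02 with IL-2-REH, from Mrps28 (-0.48) to Mrpl39 (0.58) and Mrpl14 (0.58). No ratio was past 1 between the times (2.0% and 1.89% of genes).

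Between the 2 cell types, Mrps6 was the 1 member with a mean difference past 1 log2 unit (10.8% of genes). The mean log2 difference, Tregs minus CD8+ cells over the 5 conditions, had a median of -0.05 over members, against 0.06 over expressed genes. In all 5 conditions 16 members were lower in Tregs and 7 higher, where 20.8% of genes were lower and 32.7% higher. The conditions differed: the member median was -0.14 unstimulated, -0.19 and -0.09 after 90 min of IL-2 and IL-2-REH, -0.10 after 4 hr of IL-2 and 0.24 after 4 hr of IL-2-REH, where 58 of 76 members were higher in Tregs. The pooled median was 0.02 without Treg replicate 3, -0.13 without replicate 1 and -0.16 with libraries centred on their median, so its sign depended on the libraries kept. Mrps6 stood at 6.82 to 8.21 RPKM in the CD8+ libraries and at 14.4 to 48.5 RPKM in the Treg libraries, a mean log2 difference of 1.87. It was the 1 member with all CD8+ values below the Treg range (7.24% of genes) and no member had all above (2.74% of genes). Slc5a3, a myo-inositol transporter whose exons share bases with it on the same strand, stood at 0.728 to 3.21 RPKM in CD8+ cells and 3.57 to 23.2 RPKM in Tregs. Its part in the Mrps6 level was not tested. After Mrps6 came Mrpl52 (0.44), Mrpl28 (0.39), Mrpl35 (0.35) and Mrpl32 (0.31), and lowest were Mrps18b (-0.65), Mrpl30 (-0.61), Mrps27 (-0.48), Mrpl34 (-0.42) and Mrpl42 (-0.41). Cell type goes with mouse strain, kit and sort, which cannot be told apart here.

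**Figure D5:**
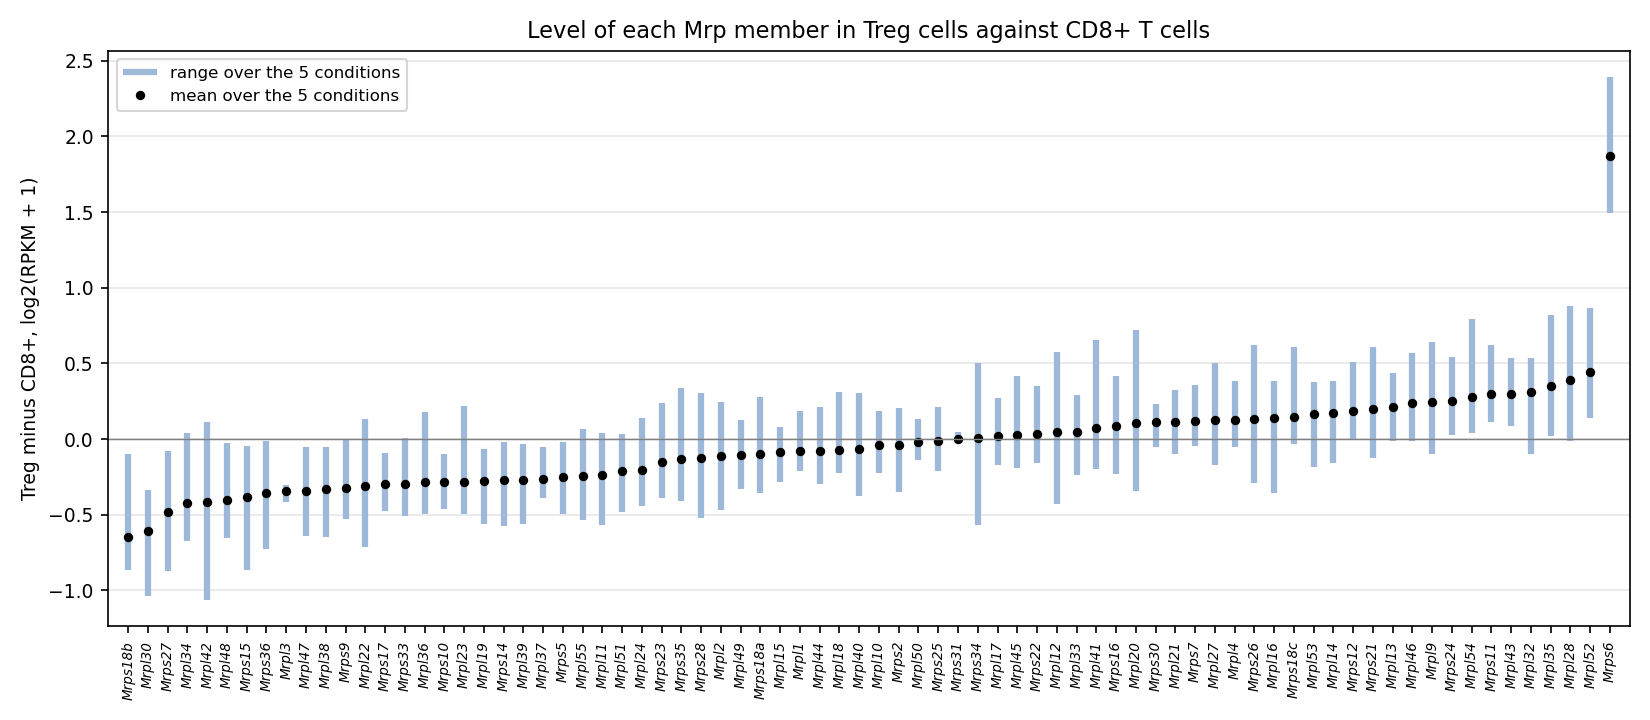
Difference between Tregs and CD8+ T cells for each member in log2(RPKM + 1), with the bar giving the range over the 5 conditions and the point the mean. Mrps6 stands at 1.87 and no other member's mean is past 1.

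Other genes of mitochondrial translation were read from fixed lists. Of 34 genes that act with the ribosome 0 passed in any Treg comparison, and of 17 mitochondrial tRNA synthetases 1 did, Tars2, which charges tRNA with threonine, after 4 hr of IL-2 (1.21, SE 0.274, adjusted p = 0.0364 by edgeR). Of 7 ribosome proteins with other symbols, 8 genes of mitochondrial transcription and DNA, 82 cytosolic ribosomal protein genes and 78 oxidative phosphorylation genes, 0 passed in any comparison. With IL-2-REH against IL-2 at 4 hr, 74 of 82 cytosolic and 62 of 78 oxidative phosphorylation genes were above 0, with medians of 0.32 and 0.23. Their pair medians were 0.29, 0.02 and 0.69 for the first list and 0.19, -0.05 and 0.65 for the second, so replicate 3 was highest there too.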

How the data were processed

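The authors isolated cells, stimulated them and sequenced mRNA. Per the submitters' notes, the tools were Bowtie2 2.2.6, TopHat2 2.1.1, SAMtools 0.1.8, bedtools 2.25.0 and edgeR, on mm10. The deposited files hold, for each of 31682 transcripts, a read count and an RPKM value made by the authors. The transcript with the most reads over the 20 libraries stood for each symbol. Members and lists were chosen with earlier results of these data known. Counts of the 15 Treg libraries were fitted together in edgeR 4.0.16 (R 4.3.3, TMM, filterByExpr, glmQLFit), with p-values adjusted over 14992 genes. Alternatives were DESeq2 1.42.0, RLE scaling, no filter, the longest transcript, a replicate block and leaving out libraries. CD8+ values used RPKM with a pseudocount of 1 and a mean of at least 1 RPKM. Same-numbered Treg libraries deviated together (30 pairs, correlation 0.121 to 0.84). The mean over 60 other pairs was -0.257. Deviations are from the group mean and sum to 0 in each group, so the 2 values are not independent of each other. On simulated IL-2 4 hr data with 14558 genes, edgeR recovered 59 of 100 genes changed by 1 log2 unit and 100 of 100 changed by 2, with 8 false calls. The simulation gave all genes the same spread and drew libraries independently, so recovery and false calls in these data may differ. Named genes were the 5 highest and lowest levels, the 3 highest and lowest changes of each comparison where none passed, the 5 highest and lowest cell type differences and members with a known role. Mrpl4 in the IL-2 4 hr comparison and Mrps28 there were chosen after their values were seen. For named members whose groups did not overlap, the share of all genes that did likewise was not counted.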

Additional observations from a re-analysis of the deposited data

Results flagged for a closer look

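All 3 same-numbered Treg pairs lay on one side of 0 and the single CD8+ ratio on the other, on the log2(RPKM + 1) scale, for 1, 2, 4 and 8 of the 76 members in the comparisons of IL-2 90 min, IL-2-REH 90 min, IL-2 4 hr and IL-2-REH 4 hr with unstimulated cells. The same held for 9 members each for IL-2-REH relative to IL-2 at 90 min and 4 hr, and for 6 and 12 between the times with IL-2 and IL-2-REH. The share of all genes that did likewise was not counted, so these counts cannot be called particular to the members. The difference between the cell types was not tested. Among the members at the ends of the same comparison in either cell type there were 7 such results. After 4 hr of IL-2, Mrpl16 had Treg ratios of -0.25, -0.06 and -0.40 and a CD8+ ratio of 0.31. After 4 hr of IL-2-REH, Mrpl34 had 0.66, 0.08 and 0.71 against -0.16, and Mrpl41 0.24, 0.34 and 0.90 against -0.12. For the 90 min libraries, Mrps6 with IL-2-REH relative to IL-2 had 0.36, 0.17 and 0.46 against -0.058. From 90 min to 4 hr of IL-2, Mrpl35 had 1.27, 0.04 and 0.57 against -0.15, and Mrps27 0.33, 0.61 and 0.67 against -0.17. From 90 min to 4 hr of IL-2-REH, Mrpl35 had 0.98, 0.05 and 0.66 against -0.029.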

How the results depend on the processing

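With the replicate block, 0 members passed in any of the 9 Treg comparisons, so no member call changed. Over all 14992 genes the block fit called 1040 for IL-2 4 hr and 454 for IL-2-REH 4 hr against unstimulated cells. The main fit called 339 and 47 there. DESeq2 called 1 member each for IL-2 90 min, IL-2 4 hr and IL-2-REH 4 hr against unstimulated cells, where edgeR called 0. Leaving out a replicate or an unstimulated library gave 0 to 2 members for IL-2 90 min, 0 to 3 for IL-2-REH 90 min and 0 to 1 for IL-2-REH 4 hr. The calls came without replicate 1, when IL-2 90 min called Mrpl39 (-0.99) and Mrps27, IL-2-REH 90 min called Mrpl39, Mrps27 and Mrps7, and IL-2-REH 4 hr called Mrps6 (1.18), or without unstimulated replicate 1 alone. The cause was not tested. Signs turned for some single members when libraries were left out. In IL-2 4 hr against unstimulated cells Mrpl35 ranged from -0.28 to 1.74 and Mrps12 from -0.033 to 0.54. In IL-2-REH against IL-2 at 4 hr Mrpl12 ranged from -0.60 to 0.14, Mrpl21 from -0.46 to 0.047 and Mrps26 from -0.65 to 0.19. Mrpl35 in IL-2 4 hr against 90 min ranged from -0.094 to 1.49, and Mrps26 in the change of the cytokine difference from -0.79 to 0.088. The negative Mrpl35 values came without IL-2 4 hr replicate 1, and the turned values of the others without replicate 3 of every group or of IL-2 4 hr. The settings without single IL-2 4 hr libraries were chosen after seeing the data. In CD8+ cells 3 ratios passed 1 with a pseudocount of 0.1 and 0 at a mean of at least 5 RPKM, where 1 did. The share of all genes is not given here for those 2 settings, so these counts cannot be called particular to the members. With libraries centred on their median, 1 member, Mrpl3, had all CD8+ values above the Treg range, where 0 had. In that setting 532 of 10458 genes did likewise. On simulated counts at the depth of the IL-2 4 hr comparison edgeR recovered 59 of 100 genes changed by 1 log2 unit, so smaller changes may be missed. Those counts had the same spread for all genes and no shared replicate effects, unlike the libraries here.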
